A study of Mus musculus with 10 samples.

Results

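Midbrain glutamatergic neuron genes were compared between E14.5 mouse midbrains with and without the element HAR.321. They are the 10 genes Slc17a6, Pou4f1, Pou4f2, Barhl1, Barhl2, Tfap2b, Tfap2d, Lhx2, Lhx9 and Ebf1. They were chosen by name, their symbols were mapped to Entrez gene IDs, and all 10 were found among the 30935 gene IDs of the counts table. The deletion group held midbrains of Rbfox1 ΔHAR.321/ΔHAR.321 embryos, homozygous for the deletion, and the wild-type group held midbrains of Rbfox1 +/+ embryos, all at embryonic day 14.5. Each group had 5 independent biological samples, one RNA-seq library each, named here by genotype and the number in the label: deletion 2, 3, 4, 5 and 6, and wild-type 1, 2, 4, 5 and 6. Human accelerated regions (HARs) are stretches conserved in other vertebrates that changed fast in the human lineage, and Rbfox1 encodes a neuronal regulator of alternative splicing. Strain, litter, sex, dissection limits and library batch are not given in the labels used here, nor is whether the line came from 1 founder.

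Glutamatergic neurons of the midbrain excite their targets by releasing glutamate, which a vesicular transporter loads into synaptic vesicles. In the embryo they are born mainly from the dorsal midbrain, where they populate the superior and inferior colliculus, and transcription factors of the POU, BarH-like, AP-2, LIM-homeodomain and EBF families mark them or subsets of them. Most of these factors also mark neurons elsewhere, such as retinal ganglion cells, cranial sensory neurons, the thalamus or the cerebellum.

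The libraries held 16246892 to 20255728 counts, and 18365 to 19452 genes had at least 1 count. Rbfox1 itself had a log2 fold change of 0.11 in deletion against wild-type (SE 0.07), short of the threshold by the quasi-likelihood test of edgeR (adjusted p = 0.607, Benjamini-Hochberg). The deletion was not placed on the counted exons, so this level does not check the genotype labels. Levels below are CPM (counts scaled to library size) after TMM scaling, which corrects for library composition, and errors are SDs over 5 libraries. Deletion 2 stood apart for these genes: it was the lowest of the 10 libraries for 8 of the 10, whereas 6.8% of the 8422 genes above 20 CPM were lowest there. Values without it are therefore given as well.

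All 10 genes were expressed in every library and passed the filter on low counts, and none differed between the groups beyond the spread between libraries. Of the 10, 0 passed edgeR's test at an adjusted p of 0.05, against 9 of 15288 genes tested (0.0589%, all 9 lower in the deletion group). That background count depended on single libraries: it was 357 without deletion 4, 88 without wild-type 2, 3 without deletion 3 or deletion 6, 1 without wild-type 4, and 0 without any one of deletion 2, deletion 5 or wild-type 1, 5 and 6, and the members gave 0 each time. At an unadjusted p of 0.05 the members gave 0 of 10, against 10.5% of all genes. In deletion against wild-type, 3 members had a log2 fold change above 0 and 7 below, with a median of -0.01 and a range of -0.13 to 0.11, and 49.3% of all tested genes lay above 0. Their adjusted p-values ran from 0.790 to 0.995. In 0 of the 10 were the groups free of overlap, as they were for 2.49% of all tested genes.

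**Figure D1:**
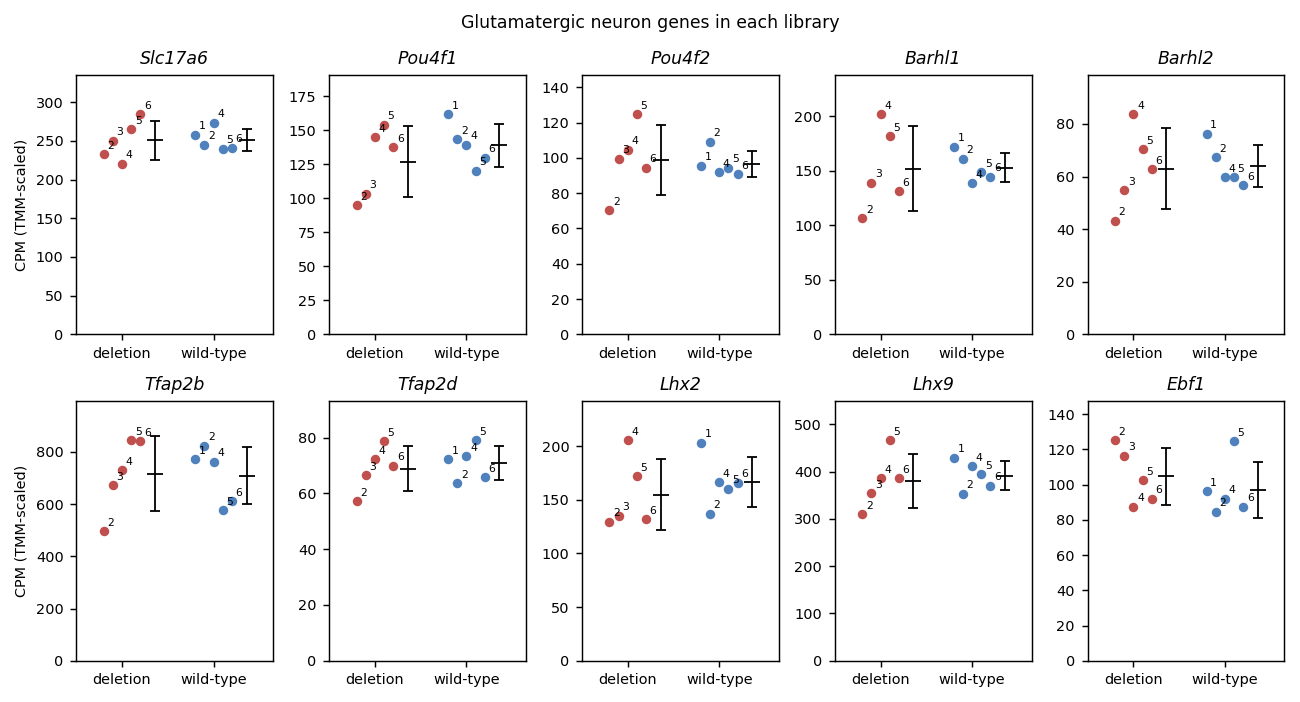
TMM-scaled CPM of the 10 genes in each library, with the deletion group left of the wild-type group; points are libraries labelled by number and bars are the mean and SD of 5 libraries. The groups overlapped for every gene, and deletion 2 was the lowest point for all but Slc17a6 and Ebf1.

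Slc17a6 (Entrez gene 140919, chromosome 7) encodes VGLUT2, the transporter that loads glutamate into vesicles, and is the member that defines the transmitter. In deletion 2, 3, 4, 5 and 6 it stood at 233, 250, 220, 265 and 284 CPM, and in wild-type 1, 2, 4, 5 and 6 at 258, 245, 273, 240 and 241 CPM. Deletion 6 was the highest and deletion 4 the lowest of all, so that the deletion libraries spanned the whole wild-type range. The means were 251 ± 25.3 CPM in the deletion group and 251 ± 14.2 CPM in the wild-type group (SD, n = 5 each). The log2 fold change was -0.0045 (SE 0.07, 95% interval -0.15 to 0.14), with an adjusted p of 0.993 in edgeR's quasi-likelihood test. This interval was the narrowest of the 10, since Slc17a6 varied least between libraries.

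Pou4f1 (18996, chromosome 14), also called Brn3a, is a POU-homeodomain factor of tectal, habenular and sensory neurons. Its level was 95.1, 104, 145, 154 and 137 CPM in deletion 2, 3, 4, 5 and 6, and 162, 144, 139, 120 and 130 CPM in wild-type 1, 2, 4, 5 and 6. Deletion 2 and 3 lay below every wild-type library, while deletion 4, 5 and 6 lay within the wild-type range. The means of 127 ± 26.2 CPM in the deletion group and 139 ± 15.6 CPM in the wild-type group gave the lowest log2 fold change of the 10, -0.13 (SE 0.13, 95% interval -0.40 to 0.14; edgeR adjusted p = 0.790). Without deletion 2 the log2 fold change was -0.05 (adjusted p = 0.943).

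Pou4f2 (18997, chromosome 8), or Brn3b, is its paralogue, best known from retinal ganglion cells and also made in the tectum. The deletion libraries gave 70.2, 99.4, 105, 125 and 94.5 CPM in the same order, and the wild-type libraries 95.6, 109, 91.8, 94.4 and 90.8 CPM. Both the lowest library, deletion 2, and the highest, deletion 5, were of the deletion group, and wild-type 2 stood above the other wild-type libraries. The groups averaged 98.7 ± 19.6 CPM with the deletion and 96.4 ± 7.44 CPM in wild-type (log2 fold change 0.04, SE 0.11, 95% interval -0.20 to 0.27, edgeR adjusted p = 0.951).

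Barhl1 (54422, chromosome 2) is a BarH-like homeodomain factor needed in mice for the upkeep of superior colliculus neurons and cerebellar granule cells. It stood at 107, 139, 202, 182 and 131 CPM in deletion 2, 3, 4, 5 and 6, and at 172, 161, 139, 149 and 145 CPM in wild-type 1, 2, 4, 5 and 6. The deletion libraries lay on both sides of the wild-type ones, with deletion 2 and 6 below all of them and deletion 4 and 5 above. The means nearly coincided, at 152 ± 38.9 CPM in the deletion group and 153 ± 13.6 CPM in the wild-type group (log2 fold change -0.01, SE 0.15, 95% interval -0.34 to 0.33, edgeR adjusted p = 0.995).

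Barhl2 (104382, chromosome 5) is the second BarH-like factor, which in mice acts in retinal and spinal interneurons. Its levels were 43.3, 54.8, 83.7, 70.4 and 62.9 CPM in the deletion libraries and 76.3, 67.3, 59.8, 59.8 and 56.8 CPM in the wild-type libraries. As for Barhl1, deletion 2 was lowest and deletion 4 highest of the 10. The group means were 63.0 ± 15.3 CPM with the deletion and 64.0 ± 7.9 CPM in wild-type (log2 fold change -0.02, SE 0.15, 95% interval -0.33 to 0.29, edgeR adjusted p = 0.978).

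Tfap2b (21419, chromosome 1) encodes AP-2β, a DNA-binding factor of neural crest, dorsal midbrain and kidney. It had 495, 672, 730, 844 and 842 CPM in deletion 2, 3, 4, 5 and 6, and 771, 823, 763, 576 and 612 CPM in wild-type 1, 2, 4, 5 and 6. Deletion 2 lay below every other library, and wild-type 5 and 6 were the next lowest. The means were 717 ± 144 CPM in the deletion group and 709 ± 108 CPM in the wild-type group (log2 fold change 0.02, SE 0.14, 95% interval -0.29 to 0.32, edgeR adjusted p = 0.984).

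Tfap2d (226896, chromosome 1) encodes AP-2δ, on which the mouse inferior colliculus depends. The deletion libraries held 57.2, 66.5, 72.2, 78.7 and 69.9 CPM, and the wild-type libraries 72.3, 63.7, 73.3, 79.0 and 65.7 CPM. Apart from deletion 2, all deletion libraries lay within the wild-type range. Its means of 68.9 ± 7.93 CPM in the deletion group and 70.8 ± 6.16 CPM in the wild-type group put the log2 fold change at -0.04 (SE 0.08, 95% interval -0.21 to 0.13, edgeR adjusted p = 0.924). Of its exon bases, 171 overlap the antisense gene Gm15825 in the GENCODE annotation, and the strandedness of the counts is not given in the labels used here, so reads there cannot be told apart.

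Lhx2 (16870, chromosome 2) is a LIM-homeodomain factor of eye, forebrain and dorsal neurons. It gave 130, 135, 205, 172 and 132 CPM in deletion 2, 3, 4, 5 and 6, against 203, 137, 167, 160 and 166 CPM in wild-type 1, 2, 4, 5 and 6. Deletion 2, 3 and 6 lay just below the lowest wild-type library, and deletion 4 reached the level of the highest one. The means were 155 ± 33.1 CPM in the deletion group and 167 ± 23.6 CPM in the wild-type group (log2 fold change -0.11, SE 0.13, 95% interval -0.40 to 0.18, edgeR adjusted p = 0.850), and without deletion 2 the log2 fold change was -0.05.

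Lhx9 (16876, chromosome 1), its close relative, is used with Lhx2 in thalamic and spinal neurons of the mouse. Its levels were 310, 355, 386, 466 and 386 CPM in the deletion libraries and 430, 353, 411, 394 and 370 CPM in the wild-type libraries. Only deletion 5 stood above the wild-type mean, and it was the highest of all 10. The group means of 380 ± 57.0 CPM with the deletion and 392 ± 30.7 CPM in wild-type put the log2 fold change at -0.04 (SE 0.09, 95% interval -0.22 to 0.14, edgeR adjusted p = 0.922).

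Ebf1 (13591, chromosome 11) is a helix-loop-helix factor of early neuronal differentiation, and of B cells outside the brain. Its levels were 125, 117, 87.4, 102 and 91.9 CPM in deletion 2, 3, 4, 5 and 6, and 96.3, 84.6, 92.0, 125 and 87.6 CPM in wild-type 1, 2, 4, 5 and 6. Here deletion 2, the lowest library for most other members, was among the highest, together with wild-type 5. The means were 105 ± 16 CPM in the deletion group and 97.0 ± 16.1 CPM in the wild-type group, and the log2 fold change of 0.11 (SE 0.11, 95% interval -0.13 to 0.34) was the highest of the 10 (edgeR adjusted p = 0.804). That place depended on single libraries. Without deletion 2 Ebf1 was at 0.03, below Pou4f2, Tfap2b, Barhl1 and Barhl2. Without wild-type 2 it was at 0.06, below Pou4f2 at 0.08 and Tfap2b at 0.07. Ebf1 rose to 0.21 (SE 0.09, edgeR adjusted p = 0.569) without wild-type 5. Its relatives Ebf2 and Ebf3, made in the same kind of early neurons, had log2 fold changes of 0.08 (SE 0.13) and 0.10 (SE 0.07). Ebf3 was at 577 ± 37.6 CPM in the deletion group and 540 ± 47.2 CPM in the wild-type group, and neither passed edgeR's test.

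**Figure D2:**
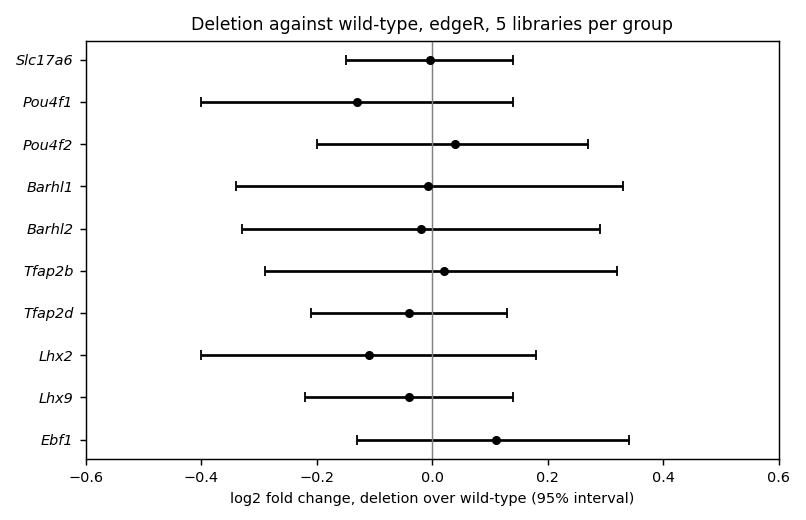
Log2 fold change of each gene, deletion over wild-type, from edgeR with its 95% interval (5 libraries per group). Every interval includes 0, and the widest, of Barhl1, runs from -0.34 to 0.33.

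The 95% intervals bound the differences that remain compatible with these libraries. They were narrow for Slc17a6, Tfap2d and Lhx9, each inside -0.22 to 0.14 on the log2 scale, and widest for Barhl1 (-0.34 to 0.33), Barhl2 (-0.33 to 0.29) and Tfap2b (-0.29 to 0.32). The lowest bound was -0.40, for Pou4f1 and Lhx2. A p that misses the threshold does not show equal levels, and in bulk tissue fewer cells of a type and less RNA per cell cannot be told apart. Leaving out deletion 2 turned the direction of 5 members, so that 8 of the 10 then had a log2 fold change above 0. Barhl1 was then at 0.09, Barhl2 at 0.08, Slc17a6, Tfap2d and Lhx9 at 0.02 each, Tfap2b at 0.12, Pou4f2 at 0.13 and Ebf1 at 0.03, and Pou4f1 and Lhx2 at -0.05 each. No member passed edgeR's test there either, and the lowest adjusted p was 0.698, for Pou4f2. Deletion 2 was the lowest library for 8 of the 10 members, so leaving it out had to raise their deletion means. Without deletion 5 instead, 1 member lay above 0 and 9 below, with a median of -0.08.

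Levels were compared between genes per kilobase of the longest GENCODE transcript. Tfap2b led with 122 ± 24.5 CPM per kb in the deletion group and 121 ± 18.5 CPM per kb in the wild-type group (SD, n = 5 each). It was followed by Lhx9 with 77.1 ± 11.5 CPM per kb with the deletion and 79.3 ± 6.22 CPM per kb in wild-type. Slc17a6 was next, at 60.6 ± 6.12 and 60.8 ± 3.43 CPM per kb in the deletion and wild-type groups. These 3 were thus well expressed genes of the tissue, Tfap2b lying at percentile 97.6 of all tested genes with a length, Lhx9 at 95.4 and Slc17a6 at 93.4. Lhx2 (54.5 ± 11.6 CPM per kb with the deletion, 58.7 ± 8.33 in wild-type), Barhl1 (41.5 ± 10.6 with the deletion, 41.8 ± 3.70 in wild-type) and Tfap2d (39.1 ± 4.5 with the deletion, 40.2 ± 3.50 in wild-type) held the middle. Pou4f2, Pou4f1 and Barhl2 lay between 27.2 and 30.8 CPM per kb in the deletion group and between 27.7 and 31.3 CPM per kb in the wild-type group. Ebf1 was lowest, at 17.5 ± 2.67 CPM per kb with the deletion and 16.2 ± 2.69 CPM per kb in wild-type, at percentile 69.8.

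Some neighbours in this order kept their places in every library and others did not. Tfap2b exceeded Lhx9, Lhx9 exceeded Slc17a6, Lhx2 exceeded Barhl1 and Tfap2d exceeded Pou4f2 in all 10 libraries. The neighbours Barhl1 and Tfap2d kept their order in only 6 of 10 libraries, as did Pou4f2 and Pou4f1, and Slc17a6 exceeded Lhx2 in 7, Pou4f1 exceeded Barhl2 in 8 and Barhl2 exceeded Ebf1 in 9 of 10. The ranges over 10 libraries overlapped for every pair of neighbours. The order also depends on the length used: per kilobase of all exon bases of the gene, Slc17a6 moved above Lhx9 and Barhl1 above Lhx2 in both groups.

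**Figure D3:**
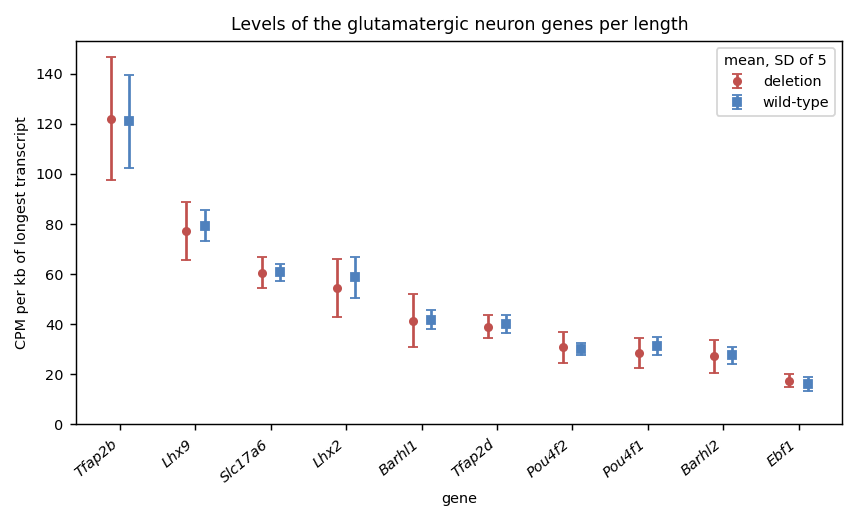
Level of each gene in CPM per kilobase of its longest transcript, ordered by level; red circles are the deletion group and blue squares the wild-type group, with bars for the SD of 5 libraries. Tfap2b leads at 122 CPM per kb in the deletion group and 121 CPM per kb in the wild-type group, and Ebf1 is lowest.

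Ratios between genes of one library do not depend on the scaling of that library, so 6 were compared by an exact two-sided permutation test over every way to assign the libraries to groups, for which the smallest p is 0.00794. The ratio of Slc17a6 to Slc32a1, the vesicular transporter of GABA and glycine, sets the excitatory against the inhibitory transmitter. It was 2.35, 2.52, 2.16, 3.11 and 2.71 in deletion 2, 3, 4, 5 and 6, and 3.35, 2.48, 3.12, 2.87 and 2.37 in wild-type 1, 2, 4, 5 and 6. Of the deletion libraries, only deletion 5 lay above the wild-type mean, but the groups overlapped, and the difference of -0.14 on the log2 scale did not pass (exact p = 0.302, adjusted over the 6 ratios 0.603). Against Gad2, which makes GABA, the Slc17a6 ratio had a median of 1.55 in the deletion group and 1.52 in the wild-type group (difference of mean log2 ratios -0.08, exact p = 0.286, adjusted 0.603).

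The ratios within the paralogue pairs compare factors of one family. Pou4f1 to Pou4f2 was 1.36, 1.04, 1.38, 1.24 and 1.45 in the deletion libraries and 1.69, 1.32, 1.52, 1.27 and 1.43 in the wild-type libraries, which differed by -0.16 on the log2 scale (exact permutation p = 0.198, adjusted 0.603). Barhl1 to Barhl2 varied little, with 2.09 to 2.58 in the deletion group and 2.26 to 2.55 in the wild-type group (difference 0.0072, exact permutation p = 0.937, adjusted 0.937). Tfap2b to Tfap2d spread most in wild-type, with 8.66 to 12 in the deletion group and 7.30 to 12.9 in the wild-type group (difference 0.05, exact permutation p = 0.770, adjusted 0.924). Lhx2 to Lhx9 lay between 0.342 and 0.532 in the deletion group and between 0.389 and 0.473 in the wild-type group (difference -0.07, exact permutation p = 0.603, adjusted 0.905). The groups overlapped in all 6 ratios. Without deletion 2 the differences of the log2 ratios were -0.11 for Slc17a6 to Slc32a1, -0.03 for Slc17a6 to Gad2, -0.18 for Pou4f1 to Pou4f2, -0.00084 for Barhl1 to Barhl2, 0.11 for Tfap2b to Tfap2d and -0.08 for Lhx2 to Lhx9, and none passed the exact permutation test.

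The members varied more between deletion libraries than between wild-type libraries. The coefficient of variation (CV, the SD as a percentage of the mean) was larger in the deletion group for 9 of the 10 genes, all but Ebf1, where 59.9% of the 8422 genes above 20 CPM had the larger CV in that group. Barhl1 showed the widest gap, with a CV of 25.5% in the deletion group and 8.86% in the wild-type group, and Barhl2 had 24.3% with the deletion and 12.3% in wild-type. The median ratio of the CVs, deletion over wild-type, was 1.81 for the members and 1.16 for the genes above 20 CPM. Without deletion 2, 7 of the 10 had the larger CV in the deletion group, against 61.8% of genes, and Barhl1 kept a CV of 20.8% there. No test was made of this difference in spread.

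In deletion 2 the log2 CPM lay below the mean of the 10 libraries by between 0.10 for Slc17a6 and 0.53 for Barhl2 for 9 of the 10 members, and above it by 0.33 for Ebf1. The mean deviation of the members was -0.31 in deletion 2, and between -0.09 and 0.20 in the other deletion libraries and -0.08 and 0.15 in the wild-type libraries. Of the lists read further below, genes of glutamate supply and transport had a mean deviation of 0.14 in deletion 2. Other excitatory neuron factors had 0.13 there, forebrain markers 0.28, GABAergic genes -0.04 and relatives of the members -0.07. Deletion 2 was at the same time the highest library for the 8 thalamus and pretectum markers, with a mean deviation of 0.62 and a summed level of 1020 CPM. Those markers ranged from 746 to 1020 CPM in the deletion group and from 656 to 920 CPM in the wild-type group. Tcf7l2 weighed most in that sum (473 ± 118 CPM with the deletion, 438 ± 135 CPM in wild-type), then Foxp2 (220 ± 33.7 CPM with the deletion, 205 ± 33 CPM in wild-type). Sox14 is also in the GABAergic list, and the mean deviation weighs scarce genes such as Gbx2 (0.298 to 6.16 CPM in the deletion group) equally. Deletion 6 had the next highest sum, 974 CPM, with a mean deviation of -0.19 for the markers and -0.01 for the members. The part of neighbouring tissue in the members' levels was not tested. The summed level of the 10 members was 1670, 1990, 2240, 2460 and 2230 CPM in deletion 2, 3, 4, 5 and 6, and 2340, 2190, 2210, 2000 and 1960 CPM in wild-type 1, 2, 4, 5 and 6.

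**Figure D4:**
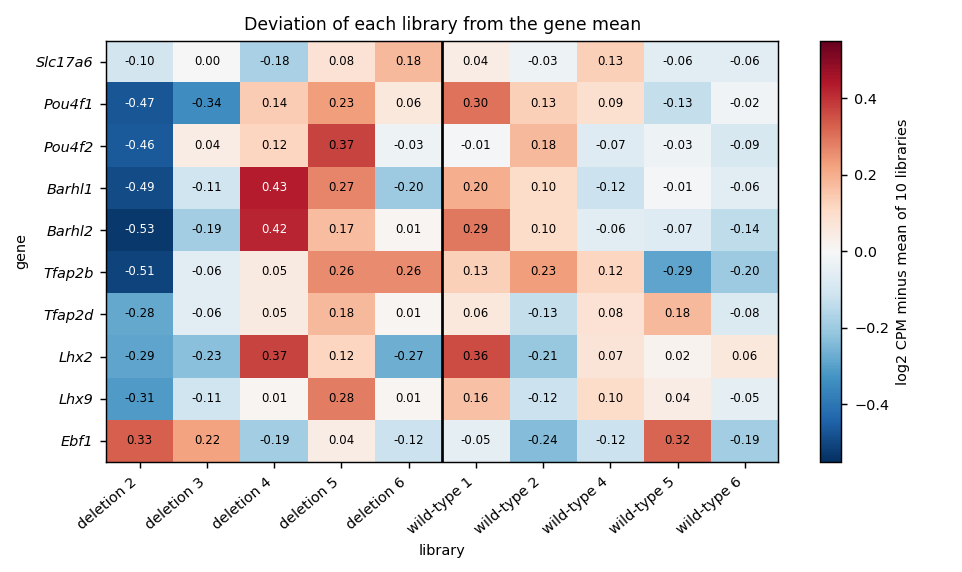
Deviation of each library's log2 CPM from the mean of the 10 libraries, per gene; deletion libraries are left of the black line and wild-type libraries right of it. Deletion 2 is blue for every gene but Ebf1, where it is 0.33 above the mean.

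Most pairs of the genes had a positive correlation across libraries, and the pairs with Ebf1 a negative one, but few passed the test. Pearson's r was computed for all 45 pairs on log2 CPM centred within each group, with an exact permutation test within the groups (14400 arrangements) and Benjamini-Hochberg adjustment over the 45. Of the pairs, 34 were positive and 11 negative, with a median r of 0.60. No such count was made for pairs of other genes, so these counts do not show whether the members stand apart. All 28 pairs among the 8 genes other than Slc17a6 and Ebf1 were positive, with r between 0.24 and 0.94. Of the 28, 24 were positive without the 2 libraries farthest from the median of the first gene of the pair, in the order listed at the start. All 9 pairs with Ebf1 were negative, with r between -0.70 and -0.03 and a median of -0.44, and none of the 9 passed. Ebf1 came second in each pair, so the 2 libraries left out were the farthest for the other gene, and 3 of those 9 were then positive. Without deletion 2 the median r of the 9 was -0.15, with Tfap2d and Lhx9 then at 0.49 and 0.11 against Ebf1. Slc17a6 followed neither pattern, with 6 positive pairs of 9 and a median r of 0.20.

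By this test 3 pairs passed. Barhl1 and Barhl2 had an r of 0.94 (Spearman's rho 0.79, exact permutation p = 0.00153, adjusted 0.0385), and 0.79 without the 2 libraries farthest from the median of Barhl1. Pou4f1 and Barhl2 had an r of 0.89 (rho 0.93, exact permutation p = 0.00257, adjusted 0.0385), and 0.81 without the 2 farthest. Pou4f1 and Tfap2b had an r of 0.85 (rho 0.83, exact permutation p = 0.00243, adjusted 0.0385), and 0.80 without the 2 farthest. Tfap2d and Lhx9 came next, with an r of 0.89 and an adjusted p of 0.0617 in the exact permutation test. The most negative pairs, Ebf1 with Pou4f1 and Ebf1 with Tfap2b, had an r of -0.70 each and did not pass, with adjusted p-values of 0.148 and 0.138 in the exact permutation test. No pair passed by Spearman's rho (lowest exact permutation p adjusted to 0.113).

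These 3 calls did not hold when most of the libraries were left out in turn. Leaving out a library also leaves fewer arrangements for the test, so a lost call does not show that this library carried it. Without deletion 2 no pair passed and the median r over the 45 pairs was 0.34; Barhl1 with Barhl2 then had an r of 0.88, Pou4f1 with Barhl2 0.82 and Pou4f1 with Tfap2b 0.74. No pair passed either without any one of deletion 3, 4, 5 and 6 or of wild-type 1, 4 and 6, while 8 passed without wild-type 2 and 4 without wild-type 5. Scaling, depth and tissue makeup are shared by all genes of a library, and their part in these correlations was not tested.

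**Figure D5:**
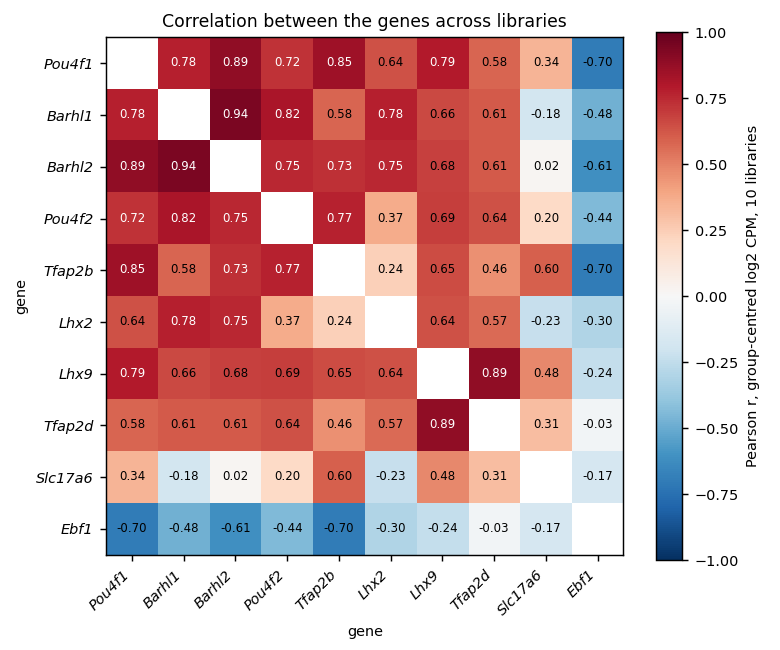
Pearson's r between each pair of the 10 genes over 10 libraries, on log2 CPM centred within the deletion and wild-type groups; red is positive and blue negative. The 8 genes at the upper left are positive with each other (0.24 to 0.94), and the row of Ebf1 is negative throughout (-0.70 to -0.03).

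The promoters of the 3 genes joined by Barhl2's correlations, and of Ebf1, whose correlations with them were negative but did not pass, are shown to set their sequences side by side. Each is the 250 bases before the first listed RefSeq start, on the gene's strand, in GRCm38.p6, which is another build than that of the counts. Capitals mark the E-box, CANNTG, the core site of basic helix-loop-helix factors such as the proneural proteins that start neuron formation.
Barhl1, chr2:28916669-28916918, minus strand: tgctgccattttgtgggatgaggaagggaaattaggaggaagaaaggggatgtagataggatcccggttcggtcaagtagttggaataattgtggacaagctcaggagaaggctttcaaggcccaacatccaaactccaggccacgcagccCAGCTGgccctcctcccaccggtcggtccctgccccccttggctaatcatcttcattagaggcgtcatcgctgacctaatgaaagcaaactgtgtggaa
Barhl2, chr5:106458167-106458416, minus strand: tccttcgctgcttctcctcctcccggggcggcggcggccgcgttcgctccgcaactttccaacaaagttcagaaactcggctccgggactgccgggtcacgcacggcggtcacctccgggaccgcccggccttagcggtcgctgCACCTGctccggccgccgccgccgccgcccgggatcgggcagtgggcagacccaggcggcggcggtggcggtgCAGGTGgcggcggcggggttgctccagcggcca
Pou4f1, chr14:104468000-104468249, minus strand: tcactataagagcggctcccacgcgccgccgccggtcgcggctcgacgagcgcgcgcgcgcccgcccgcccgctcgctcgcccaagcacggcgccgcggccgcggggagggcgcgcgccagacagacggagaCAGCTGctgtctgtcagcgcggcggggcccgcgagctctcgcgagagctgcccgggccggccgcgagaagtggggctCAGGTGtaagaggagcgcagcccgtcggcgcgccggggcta
Ebf1, chr11:44617850-44618099, plus strand: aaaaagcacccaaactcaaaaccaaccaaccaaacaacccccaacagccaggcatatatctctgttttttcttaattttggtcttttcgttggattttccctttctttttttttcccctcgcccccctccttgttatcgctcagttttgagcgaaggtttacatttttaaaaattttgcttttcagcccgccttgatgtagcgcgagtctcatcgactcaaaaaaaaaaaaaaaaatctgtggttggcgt
The Barhl1 window held 1 E-box, those of Barhl2 and Pou4f1 held 2 each and that of Ebf1 held 0. An E-box was present in this window for 6 of the 10 members and in 66.2% of all 32851 listed promoters, so these counts do not set the members apart. The G and C share was 52.8% for Barhl1, 74.8% for Barhl2, 78.0% for Pou4f1 and 40% for Ebf1. Sites of the kinds the members' own products bind were searched on both strands as well. TAATTA, a core of homeodomain sites, was in 4.84% of all promoters, CCCNNGGG, an EBF-type site, in 11.8%, and GCCNNNGGC, an AP-2-type site, in 13.7%, and 0 of the 10 members' first promoters held any of the 3. These shares count every listed promoter, the members only their first. Among the members' later ones, promoter 2 of Slc17a6 held 1 TAATTA, and promoter 2 of Barhl1 and of Lhx2 held 1 and 2 AP-2-type sites. Promoter 2 of Ebf1 and promoters 2 and 3 of Tfap2d held none of the 3 kinds. Promoter 2 of Ebf1 held 1 E-box and promoter 3 of Tfap2d held 3, while promoter 2 of Lhx2 and of Tfap2d held 0. A match is a description of letters and not of binding.

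For each member the 3 genes with the highest r over the 10 libraries, centred within the groups, were taken from 11692 genes of at least 5 CPM. Being the highest of so many, these values are descriptions without a test, and the genes of a library share its depth and makeup. Pou4f1 was followed most closely by Pou3f4, another POU-homeodomain gene, by Mark3, a kinase gene, and by Otx2, a homeodomain factor of forebrain and midbrain, each with an r of 0.92. Barhl2 was the only member to have another member among its 3, namely Barhl1. Lhx2 was closest to Ccnd1, which encodes cyclin D1 and drives cell division (r 0.96), to Itprip (0.96) and to Igfbp2, an IGF-binding protein gene (0.95). Lhx9 was closest to Mettl14, a subunit of the RNA m6A methyltransferase (0.95), to Usp4 (0.92) and to Shox2, a homeodomain factor (0.91). Slc17a6 was closest to Gm9833 (0.96), Vti1a (0.95) and Ttc39b (0.94), Pou4f2 to Rnf25 (0.94), Abcc1 (0.94) and Zscan25 (0.92), and Barhl1 to Tbc1d20 (0.95), Pwwp3a (0.94) and Glyr1 (0.94). The other 2 genes closest to Barhl2 were Kif26a and Pcsk7, both with an r of 0.94. Tfap2b was closest to Poc5 (0.92), Lrp6 (0.90), a Wnt co-receptor gene, and B230323A14Rik (0.89), and Tfap2d to Brd9 (0.94), Ciao1 (0.92) and Birc2 (0.91). Ebf1 was closest to Mcur1 (0.94), Plk4 (0.93), which starts centriole duplication, and Paqr8 (0.93).

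Other genes of glutamate handling and of excitatory neurons gave no call in edgeR's test. Of 12 genes of glutamate supply and transport, 11 were tested, of which 9 had a log2 fold change above 0 and 2 below (median 0.07, 0 called). Slc38a1, a glutamine carrier of neurons, stood at 343 ± 17.4 CPM in the deletion group and 316 ± 10.9 CPM in the wild-type group (log2 fold change 0.12, SE 0.06, edgeR adjusted p = 0.5). Got2, which makes glutamate in mitochondria, had a log2 fold change of 0.11 (SE 0.06). The other vesicular glutamate transporters were scarce: Slc17a8 (VGLUT3) stood at 8.08 ± 2.28 CPM with the deletion and 8.35 ± 4.49 CPM in wild-type, and Slc17a7 (VGLUT1) reached at most 19 counts in a library and was not tested.

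Of 20 other factors and peptides of excitatory neurons, 7 had a log2 fold change above 0 and 13 below (median -0.06, 0 called). Dmbx1, a homeodomain factor of the midbrain, was at 32.9 ± 5.71 CPM in the deletion group and 38.7 ± 5.47 CPM in the wild-type group (log2 fold change -0.23, SE 0.12, edgeR adjusted p = 0.519), and Emx2, a homeodomain factor known from the cortex, also had -0.23 (SE 0.13). Among 16 relatives of the members, 12 were tested, with 6 above and 6 below 0 and a median of 0.03 (0 called). The leading relatives were Pou3f3, a POU factor, at -0.19 (SE 0.11), and Lhx1, a LIM-homeodomain factor of several interneuron types, at 0.12 (SE 0.07).

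Genes of the other transmitter and of other cell states were read in the same fit. Of 13 GABAergic genes, 11 had a log2 fold change above 0 and 2 below (median 0.08), 0 were called and 1 had an unadjusted p under 0.05 in edgeR. That gene was Six3, a homeodomain factor of some GABAergic neurons and of the anterior forebrain, with 60.2 ± 7.35 CPM in the deletion group and 50.2 ± 8.98 CPM in the wild-type group (log2 fold change 0.26, SE 0.11, edgeR adjusted p = 0.411). Slc32a1 had a log2 fold change of 0.13 (SE 0.08), Gad2 0.08 (SE 0.07) and Gad1, the other GABA-making enzyme, 0.04 (SE 0.06). Of 14 neural progenitor genes, 3 lay above 0 and 11 below (median -0.10, 0 called), and those with an unadjusted p under 0.05 in edgeR were the stem cell factor gene Sox2, at -0.23 (SE 0.10, adjusted p = 0.415), and the receptor gene Notch1, at 0.24 (SE 0.11, adjusted p = 0.448). Their mean deviation ranged from -0.34 to 0.20 in the deletion libraries and from -0.40 to 0.23 in the wild-type libraries. Of 10 genes of all neurons, 6 lay above and 4 below 0 (median 0.02, 0 called). Syt1, the calcium sensor of vesicle release, had 0.16 (SE 0.07, edgeR adjusted p = 0.441), and Elavl3, an RNA-binding protein gene of neurons, 0.08 (SE 0.06).

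Markers of neighbouring regions and cells were read for what else the dissections could hold. Of the 8 hindbrain and cerebellum markers, 3, all of them Hox genes, had 0 counts in every library. Only 3 of 8 forebrain markers passed the low-count filter, among them Six3. Their summed levels ran from 53.8 to 71.7 CPM in the deletion group and from 42.3 to 63.2 CPM in the wild-type group. The hindbrain list left 2 tested genes, of which 1 was Barhl1 itself. The summed level of that list, Barhl1 included, was 113 to 203 CPM in the deletion group and 141 to 174 CPM in the wild-type group. Of 8 thalamus and pretectum markers, 7 lay above 0 and 1 below (median 0.07), led by Foxp2 at 0.10 (SE 0.12) and Olig3 at 0.40 (SE 0.61).

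Cells outside the brain that make Pou4f1 or Pou4f2 were also looked for. Of 8 cranial sensory ganglion markers, 5 were tested, with 2 above and 3 below 0 (median -0.01). Their summed level was 16.9 to 27.7 CPM in the deletion group and 13.8 to 31.7 CPM in the wild-type group. Tlx3, a homeodomain factor of sensory neurons, was at 0.69 (SE 0.38), and Isl1, a LIM-homeodomain gene of sensory and motor neurons, at -0.19 (SE 0.24). Of 8 retina markers, 7 were tested, with 5 above and 2 below 0 (median 0.13), among them Rlbp1, a retinoid carrier, at 0.37 (SE 0.18), and Mitf, of pigment cells, at 0.54 (SE 0.35). The retina marker Six6 reached 1 count at most in a library. The retina list summed to 147 to 231 CPM in the deletion group and 202 to 238 CPM in the wild-type group, which counts Otx2, a gene the midbrain also makes. All 8 red blood cell markers lay above 0 (median 0.18, 0 called), with 2240 to 3000 CPM in the deletion group and 1710 to 2560 CPM in the wild-type group. Alas2, the haem enzyme of red cells, had a log2 fold change of 0.47 (SE 0.16, edgeR adjusted p = 0.228), and Hba-a2, an alpha-globin gene, 0.25 (SE 0.12). The part of these cells in the members' levels was not tested.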

How the data were processed

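Total RNA of E14.5 midbrains was purified with a Direct-zol column kit, as the labels state. For the series the authors deposited raw counts per Entrez gene ID, made with HISAT2 and featureCounts on mm39, per the submitters' processing notes. Versions, annotation, strandedness and the handling of reads with several positions are not given in the sources used, and they bear on overlapping genes and genes with close copies. Every column matched a sample (0 without one), and 30648 of 30935 IDs had a RefSeq symbol; the rest held 0.0116% of the counts. Libraries of a group differed by a chi-square of at least 5.96 per degree of freedom, so all 10 were kept.

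Counts were fitted in edgeR 4.0.16 (R 4.3.3; filterByExpr, TMM, robust quasi-likelihood, group as the only term) over 15288 genes, with two-sided tests, a Benjamini-Hochberg threshold of 0.05 and log2 CPM at a prior count of 2. Precision is set by 5 libraries per group and 16246892 to 20255728 counts each. P-values of the group comparisons weigh the difference between groups against the spread between these samples. Ratios used a pseudocount of 0.5 count. Permutations, motifs and summaries used Python 3.11.15 (numpy 2.4.6, pandas 2.3.3). Lengths and exons came from GENCODE M21 (GRCm38) and promoters from RefSeq (GRCm38.p6). The edgeR fit was also run on simulated counts, drawn gene by gene without tissue shifts shared by the genes of a library. Its outcome is not reported here, and it does not cover such shifts.

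The members, lists and tests were chosen with earlier results of these data known. Named genes are the members, the 2 smallest p of each list (all past the threshold, had there been any), Gad1, Gad2, Slc32a1, Slc17a7, Slc17a8, Ebf2 and Ebf3, and the 3 genes most correlated with each member. Six6, Otx2, Tcf7l2, Sox14 and Gbx2 were also named as markers, after their values were seen. Some genes this rule gave are not reported here. Alternatives were RLE and upper-quartile factors, no filter, at least 1 CPM in 5 libraries, DESeq2 1.42.0, limma-voom (limma 3.58.1), the replicate number as a block, removal of length and GC trends, a ratio pseudocount of 5 and leaving out each library. Leave-one-out values of the pairs and the spread without deletion 2 were added after the data were seen.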

Additional observations from a re-analysis of the deposited data

Results flagged for a closer look

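Among the wild-type libraries, Pou4f2 in wild-type 2 stood apart at 109 CPM, against 90.8 to 95.6 CPM in the other wild-type libraries. Its gap to the next library took 0.741 of the group's range, above Dixon's critical value of 0.71 for 5 samples. Of 32 groups of values examined this way it was the only one to pass, where chance gives about 1 in 20.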

How the results depend on the processing

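No member passed the threshold under any of 19 alternatives (190 values; the largest log2 fold change was 0.23 in size, and the lowest adjusted p was 0.394, for Lhx2 without deletion 4), but 29 of the 190 had the opposite sign, at values between -0.07 and 0.09. The median of the members ran from -0.08 to 0.03. The replicate numbers did not pair the samples (same-number correlations -0.01, 0.02, -0.06 and 0.05 for numbers 2, 4, 5 and 6). With the replicate number as a block over the 4 shared numbers, 0 genes were called, and Slc17a6 was at 0.0004, Barhl1 at 0.03, Barhl2 at 0.07, Lhx9 at 0.0056 and the Barhl1 to Barhl2 ratio at -0.03; the smallest p of a paired ratio is 0.125. With the length trend removed, 0 genes were called, and Barhl2 was at 0.02, Tfap2b at -0.04 and Tfap2d at 0.04. With length and GC trends removed, 18 genes were called, and Slc17a6 was at 0.01, Tfap2b at -0.04 and Tfap2d at 0.03.

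The 9 genes called became 15 with upper-quartile factors, 69 with no filter and 261 with DESeq2; the cause was not tested. Leaving out each library gave 0 to 357 genes called (357 without deletion 4, 88 without wild-type 2, 0 without deletion 2) and 0 to 8 correlated pairs. The log2 fold changes then ran from -0.05 to 0.04 for Slc17a6, -0.21 to -0.05 for Pou4f1, -0.07 to 0.13 for Pou4f2, -0.13 to 0.09 for Barhl1, -0.14 to 0.08 for Barhl2, -0.06 to 0.12 for Tfap2b, -0.10 to 0.02 for Tfap2d, -0.23 to -0.03 for Lhx2, -0.13 to 0.02 for Lhx9 and 0.03 to 0.21 for Ebf1. The ratio of Barhl1 to Barhl2 ran from -0.02 to 0.06, that of Tfap2b to Tfap2d from -0.07 to 0.14, and the other 4 stayed below 0; none of 72 ratio values passed. With 5 libraries per group, a member's standard error of 0.12 (median) limits what can be seen.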
